A study of Caenorhabditis elegans with 6 samples.

Results

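The respiratory chain genes encoded in the nucleus were compared between 2 groups of Caenorhabditis elegans libraries. They were the loci whose symbols start with nuo-, sdha-, sdhb-, sdhd-, mev-1, isp-, cyc-, ucr-, cco-, cox-, atp-, asb- or asg-, together with gas-1, and that carried the same gene name and position in all 7 deposited tables. Of 15796 listed loci, 28 had such a symbol and 27 of these kept the same labels in every table. The locus left out was isp-1, which encodes the Rieske iron-sulfur protein of complex III, because its name and position differed between the tables of the groups. One of the 27, cyc-2.1, was joined with the ribosomal protein gene rpl-20 into a single locus and is given apart. The other 26 were single genes, with 7 in complex I, 3 in complex II, 6 in complex III and cytochrome c, 2 in complex IV, 3 for the assembly of complex IV and 5 in complex V. All 26 lie on nuclear chromosomes, 20 on autosomes and 6 on the X chromosome. No row was used for mev-1, sdhd-1, atp-2, atp-3, atp-4 or clk-1.

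Total RNA was sequenced from whole adults of wild-type Bristol N2, the standard laboratory strain, kept at 20 °C. RNAi was by feeding from the L4 larval stage, on plates with 6 mM IPTG to induce the double-stranded RNA in the bacteria, and the adults of their progeny were collected. Control worms received RNA against tag-208, the gene now named sorb-1, and the other group received RNA against prx-5, the receptor that carries most enzymes into the peroxisome. Each group had 3 biological replicates, and both groups shared the genotype, the stage and the feeding method, so that a difference can come from either targeted gene. Whole worms mix all tissues, so fewer cells of a type and less RNA per cell cannot be told apart.

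The respiratory chain sits in the inner mitochondrial membrane. Complexes I and II pass electrons from NADH and succinate to ubiquinone, complex III passes them to cytochrome c, and complex IV passes them to oxygen. Complexes I, III and IV pump protons, and complex V, the ATP synthase, uses the proton gradient to make ATP. In the worm, mutation or RNAi of several of these genes, among them nuo-6, isp-1 and cco-1, is known for long life and for switching on the mitochondrial unfolded protein response.

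The targeted gene prx-5 had more RNA under its own RNAi label, at 19.9 ± 4.45 FPKM against 4.24 ± 0.65 in control (SD, n = 3; log2 fold change 1.98 ± 0.22 SE, adjusted p = 0.00865). This is the opposite of a knockdown of its RNA. The control's target sorb-1 had 10.5 ± 3.11 FPKM in control and 18.03 ± 6.60 in prx-5 (log2 0.72 ± 0.31 SE, adjusted p = 0.232), lower under its own label without passing the test. All directions below are those of the labels, and the group is called the prx-5-labelled libraries. FPKM are fragment counts divided by gene length and by how many fragments the library had mapped, and read totals of the libraries are unknown. Of the libraries, prx-5 replicate 1 and control replicate 2 stood apart from the others of their groups in the chain genes, and the values without each of them follow the account of the complexes. The labels give no batch, and p-values measure the spread between these samples.

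No chain gene passed the test between the groups, and most had slightly lower values in the prx-5-labelled libraries. Limma on log2(FPKM + 1), with p-values adjusted over all 13349 loci tested, called 0 of the 26 genes at an adjusted p under 0.05, where it called 8.69% of all loci (7.49% higher and 1.2% lower, or 1000 and 160 loci). Constants between libraries were fitted here to the FPKM per group that the authors deposited, and are called the authors' constants. With them limma called 521 higher and 192 lower loci, and again 0 of the 26. At an unadjusted p under 0.05 there was 1 chain gene, cyc-2.2, against 21.9% of all loci. Adjusted p-values of the chain genes ran from 0.0734 for cyc-2.2 to 0.994 for gas-1. The authors' deposited table, made with Cuffdiff, calls 2 of the 26, asg-1 (q = 0.00588) and cyc-2.2 (q = 0.00264), both lower in prx-5. It calls 14.4% of the same loci (4.85% lower and 9.52% higher).

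The estimate was below 0 for 24 of the 26 genes, against 46.6% of all loci tested. The exceptions were ucr-2.1 and gas-1, and gas-1 falls below 0 as well under median-ratio scaling and the authors' constants. The median log2 fold change of the 26 was -0.26, against 0.04 for all loci and -0.05 for the 6995 loci in the same range of mean FPKM. Those 6995 loci had a median control level of 40.2 FPKM, against 181 for the 26, so the 2 sets are not matched in level. With the authors' constants the median over all loci was -0.08 and that of the chain genes -0.40, and with quantile normalization these were -0.10 and -0.23. By complex the medians were -0.25 for I, -0.11 for II, -0.28 for III with cytochrome c, -0.30 for the subunits of IV, -0.21 for its assembly genes and -0.29 for V. The complexes were not tested against each other. The 95% confidence interval of the fold change included 0 in 25 genes and stayed between -1 and 1 in 21, so a change beyond 2-fold lies outside the interval for those 21.

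**Figure D1:**
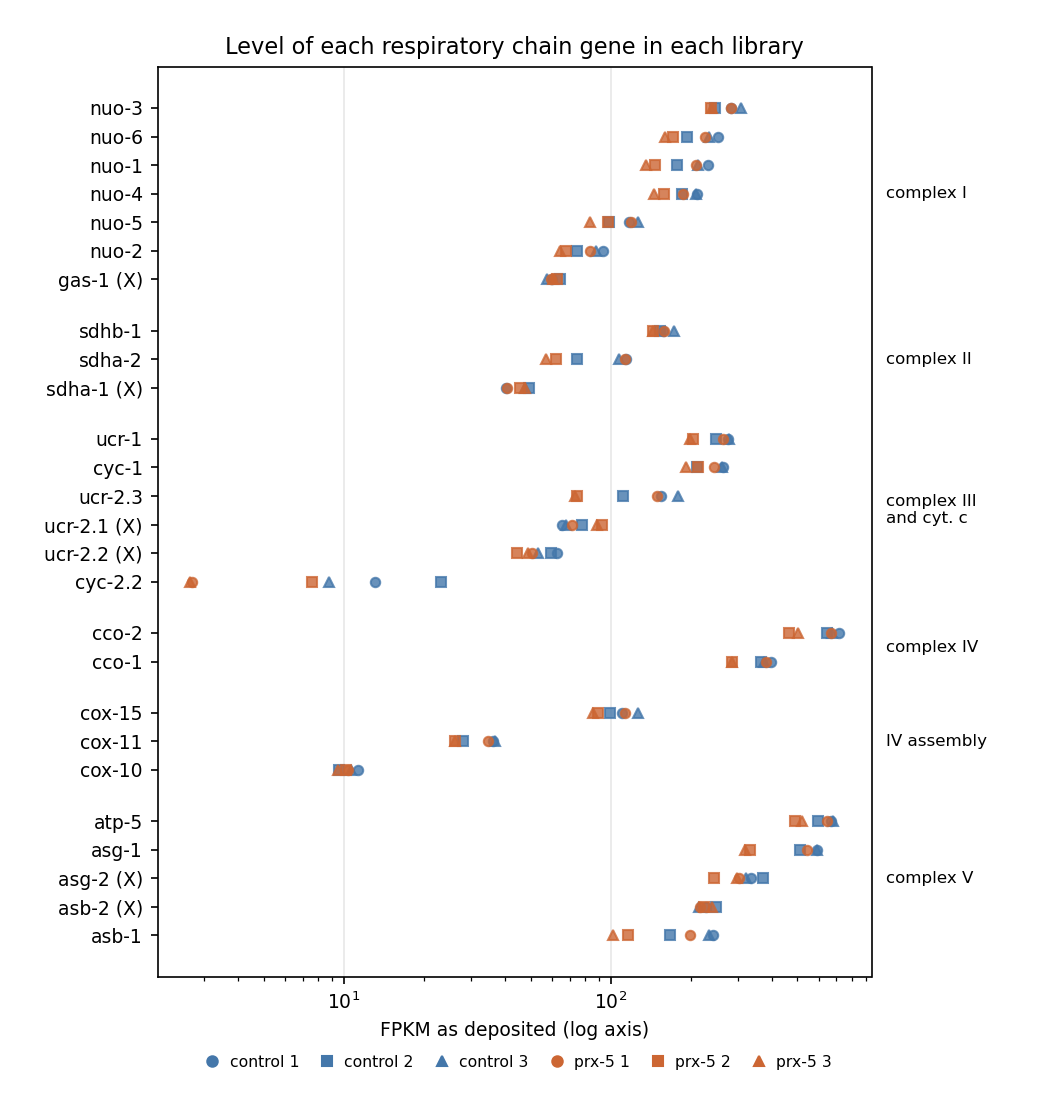
FPKM of the 26 chain genes in each of the 6 libraries, on a log axis, grouped by complex; each point is a library. The levels run from 2.65 FPKM for cyc-2.2 in prx-5 replicate 3 to 716 for cco-2 in control replicate 1, and the points of the groups overlap for all genes except cyc-2.2, ucr-2.2 and asg-2.

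The chain genes were strongly expressed, with a median control level of 181 FPKM against 10.24 over all loci tested. The highest of the 26 in control were cco-2 at 677 ± 35.9, atp-5 at 647 ± 43.9 and asg-1 at 566 ± 49.0 FPKM (SD, n = 3), and the lowest were cox-10 at 10.5 ± 0.847 and cyc-2.2 at 14.97 ± 7.32. Summed FPKM of the 26 genes were 5728, 5082 and 5662 in control replicates 1, 2 and 3, and 5364, 4105 and 4121 in prx-5 replicates 1, 2 and 3. The first prx-5-labelled library thus lay inside the control range, and the other two lay below it.

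That split between the prx-5-labelled libraries ran through most of the chain. Expressed as the median deviation of the 26 genes from their control means, on the log2 scale, the controls stood at 0.07, -0.12 and 0.06, and the prx-5-labelled libraries at -0.01, -0.36 and -0.38. Replicate 1 lay within the control range in 23 of the 26 genes, while replicates 2 and 3 were both below every control in 20 of them, which 20.4% of all tested loci also were. Over all loci the medians of the 3 prx-5-labelled libraries were 0.13, 0.02 and 0.03. Groups that did not overlap were seen in 3 chain genes, cyc-2.2, ucr-2.2 and asg-2, all lower in prx-5, where 5.8% of loci were separate in that direction and 21.2% in the other.

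**Figure D2:**
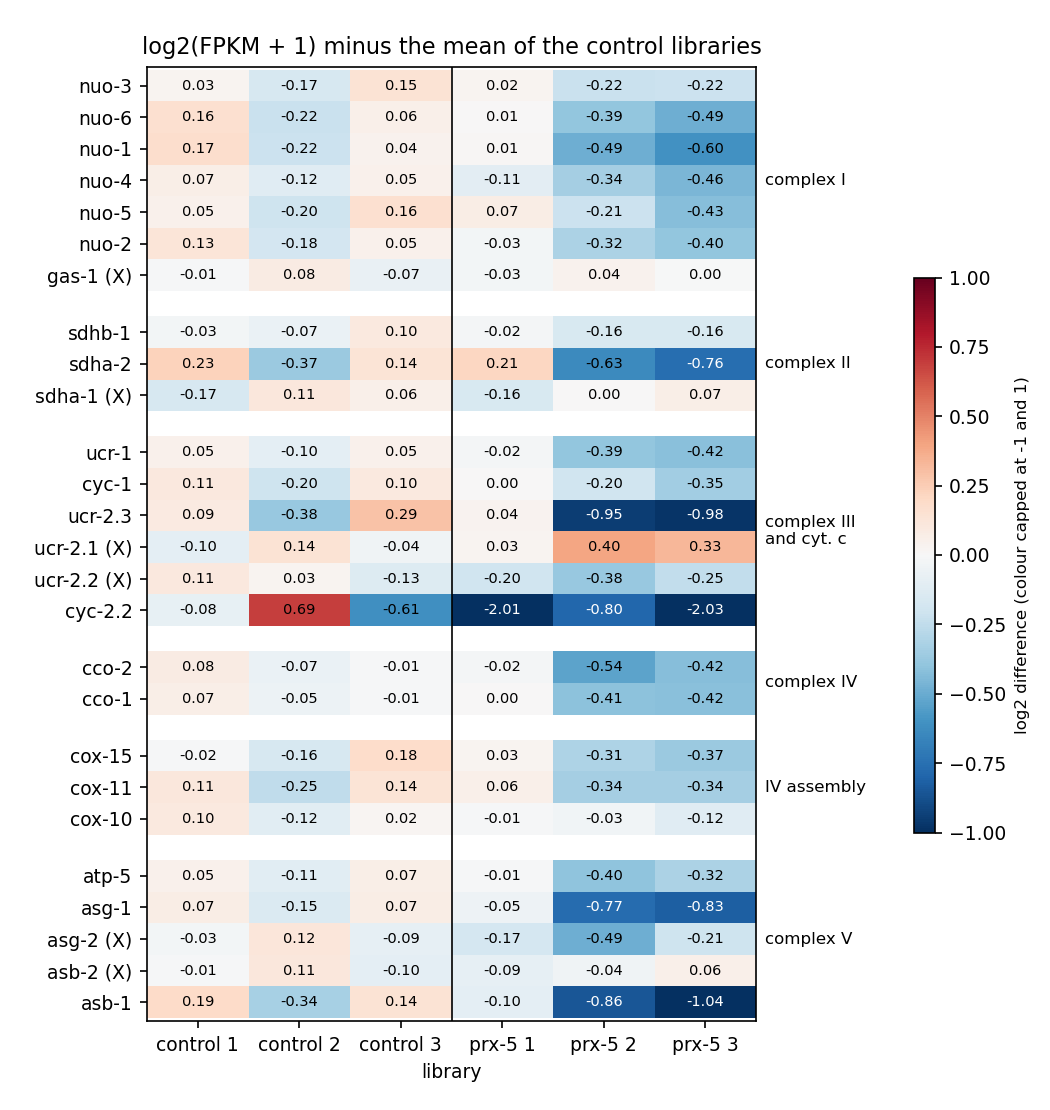
Deviation of each chain gene (rows, by complex) from its mean in the control libraries, in each library (columns), on the log2(FPKM + 1) scale; blue is lower and red is higher, with the colour capped at -1 and 1, and (X) marks genes of the X chromosome. The columns of prx-5 replicates 2 and 3 are blue in most rows while prx-5 replicate 1 is near 0, and control replicate 2 is blue in most autosomal rows.

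In complex I, the NADH dehydrogenase, 6 of 7 genes had estimates below 0 and none passed the test. The largest difference was in nuo-1, the subunit that binds flavin and takes electrons from NADH. It had 232, 177 and 212 FPKM in the controls and 207.7, 146 and 135 in the prx-5-labelled libraries, so that only replicates 2 and 3 lay under the lowest control (log2 fold change -0.36 ± 0.21 SE, adjusted p = 0.38). The accessory subunit nuo-6 had 251, 192 and 234 FPKM in control and 226, 171 and 160 in prx-5 (-0.29 ± 0.19 SE, adjusted p = 0.438). Its pattern over the libraries was that of nuo-1, with prx-5 replicate 1 among the controls. The most abundant of the 7 was the accessory subunit nuo-3, with 282, 246 and 307 FPKM in control and 282, 237 and 239 in prx-5, where the groups overlapped (-0.14 ± 0.16 SE, adjusted p = 0.663). Its gene overlaps Y57G11C.1147 on the same strand over 1093 bp in the WBcel235 annotation, so reads of these cannot be told apart.

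The core subunit gas-1, whose mutants are known for sensitivity to oxygen and to volatile anaesthetics, showed no such pattern. It had 60.4, 64.6 and 57.8 FPKM in control and 59.7, 62.7 and 60.7 in prx-5, with all prx-5 values inside the control range (0.00 ± 0.13 SE, 95% interval from -0.30 to 0.31, adjusted p = 0.994). The other complex I genes were the core subunits nuo-2 and nuo-5 and the accessory subunit nuo-4, with estimates between -0.30 and -0.19 and adjusted p-values from 0.318 to 0.597. Summed over the 7 genes, the level was 1246, 1036 and 1233 FPKM in control and 1163, 940.1 and 887.5 in prx-5.

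Complex II, succinate dehydrogenase, also belongs to the citrate cycle. Its genes had the smallest median difference of the chain. The flavoprotein has a pair of genes, and sdha-2 had 114, 74.9 and 107 FPKM in control and 113, 62.3 and 57.0 in prx-5 (-0.39 ± 0.30 SE, adjusted p = 0.488). Replicate 1 of prx-5 matched the higher controls, and control replicate 2 was closer to prx-5 replicates 2 and 3 than to the other controls. Its X-linked partner sdha-1 had 40.3, 49.2 and 47.5 FPKM in control and 40.7, 45.5 and 47.7 in prx-5, with full overlap (-0.03 ± 0.15 SE, adjusted p = 0.929; above 0 when control replicate 2 or 3 or prx-5 replicate 1 is left out). The iron-sulfur subunit sdhb-1 had 157, 153 and 172 FPKM in control and 159, 144 and 143 in prx-5 (-0.11 ± 0.14 SE, adjusted p = 0.675).

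In complex III and cytochrome c, the differences pointed both ways. The cytochrome c gene cyc-2.2 (WBGene00013854, chromosome V, 12611682 to 12612209 in the deposited coordinates) had the largest difference of the chain, with 13.1, 23.04 and 8.76 FPKM in control and 2.70, 7.59 and 2.65 in prx-5. Its groups did not overlap, although prx-5 replicate 2 came near control replicate 3. The log2 fold change of -1.61 ± 0.44 SE missed the threshold with an adjusted p of 0.0734. It was -1.27 when control replicate 2 was left out and -1.41 when prx-5 replicate 1 was. Summed sperm markers were 393, 944 and 255 FPKM in control and 122, 290 and 181 in prx-5. Of these markers 24 of 24 had estimates below 0, with 0 called by limma. The authors' deposited table calls 15 of them lower, against 4.85% of all loci tested. Both cyc-2.2 and the summed sperm markers had their highest control value in replicate 2 and their highest prx-5 value in replicate 2. The part of sperm RNA in the result was not tested. In WBcel235 cyc-2.2 lies wholly inside cubn-1 on the other strand, and whether the libraries keep strand is not given in the sources used here.

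The other cytochrome c gene, cyc-2.1, was measured jointly with rpl-20 and cannot be read alone. The joined locus had 1156, 1043 and 1257 FPKM in control and 1112, 707 and 814 in prx-5 (-0.41 ± 0.23 SE, adjusted p = 0.349). Cytochrome c1, encoded by cyc-1, had 262, 211 and 260 FPKM in control and 243, 212 and 191 in prx-5, with overlapping groups (-0.18 ± 0.17 SE, adjusted p = 0.584). For isp-1 the authors' deposited table gives 35.9 FPKM in control and 53.5 in prx-5 (log2 fold change 0.57, q = 0.285). The library values in its row go the other way, at 350, 306 and 323 FPKM in control and 46.6, 60.8 and 60.2 in prx-5. The name and position of that row differ between the groups, so the library values were not used and no direction is given for isp-1.

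The core proteins of complex III had different values from gene to gene. Among the 6 genes of complex III and cytochrome c in the set, the most abundant was that of the first core protein, ucr-1. It had 275, 248 and 276 FPKM in control and 263, 203 and 199 in prx-5 (-0.28 ± 0.17 SE, adjusted p = 0.397). The second core protein has 3 genes. The autosomal ucr-2.3 had 154, 111 and 178 FPKM in control and 149, 74.7 and 73.2 in prx-5, so prx-5 replicate 1 sat among the controls and the others lay below all of them (-0.63 ± 0.32 SE, adjusted p = 0.304). The X-linked ucr-2.1 had the highest estimate of the chain, with 65.4, 77.8 and 68.1 FPKM in control and 71.8, 92.9 and 88.5 in prx-5 (0.25 ± 0.16 SE, adjusted p = 0.413). Its prx-5 replicates 2 and 3 lay above all controls while replicate 1 did not. The X-linked ucr-2.2 had 63.05, 59.6 and 53.2 FPKM in control and 50.7, 44.7 and 49.1 in prx-5, groups that did not overlap (-0.28 ± 0.14 SE, adjusted p = 0.308). It overlaps the collagen gene col-41 and pkhm-2 on the other strand.

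The complex IV subunits in the set were cco-1 and cco-2, which encode subunits on the matrix side of cytochrome c oxidase. The most abundant of the 26 genes was cco-2, with 716, 644 and 672 FPKM in control and 668, 465 and 504 in prx-5 (-0.33 ± 0.20 SE, adjusted p = 0.387). In cco-1 there were 399, 366 and 376 FPKM in control and 381, 285 and 284 in prx-5 (-0.28 ± 0.18 SE, adjusted p = 0.418). In both, prx-5 replicates 2 and 3 were below every control and replicate 1 was not. Of the assembly genes, whose products in yeast make heme A or deliver copper, cox-15 had 110, 99.2 and 126 FPKM in control and 113, 89.7 and 85.9 in prx-5 (-0.22 ± 0.17 SE, adjusted p = 0.511). The gene with the lowest control level, cox-10, had 11.3, 9.59 and 10.6 FPKM against 10.4, 10.21 and 9.52 (-0.06 ± 0.16 SE, adjusted p = 0.86). The copper delivery gene cox-11 lay between these, with an estimate of -0.21 ± 0.19 SE.

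In complex V all 5 estimates were below 0, and that of asb-1 was the lowest of the chain after cyc-2.2. The b subunit of the stalk that holds the synthase has the genes asb-1, known as the germline form, and asb-2. The level of asb-1 (chromosome III) was 241, 167 and 232 FPKM in control and 197, 116 and 102 in prx-5, a difference of -0.66 ± 0.28 SE on the log2 scale with an adjusted p of 0.228. Replicates 2 and 3 of prx-5 were below every control, and replicate 1 was between the controls. The X-linked asb-2 had 227, 248 and 214 FPKM in control and 215, 223 and 239 in prx-5, with full overlap (-0.02 ± 0.14 SE, adjusted p = 0.942; above 0 under quantile normalization and without control replicate 2 or prx-5 replicate 1).

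The g subunit, which sits in the membrane part of the synthase, is likewise encoded by an autosomal and an X-linked gene. The autosomal asg-1 had 594, 509 and 594 FPKM in control and 545, 331 and 318 in prx-5 (-0.55 ± 0.24 SE, adjusted p = 0.248). Here too prx-5 replicate 1 lay within the controls. The X-linked asg-2 had 336, 371 and 321 FPKM in control and 303, 243 and 296 in prx-5, and its groups did not overlap (-0.29 ± 0.16 SE, adjusted p = 0.358). The most abundant of the 5 complex V genes in the set, the d subunit atp-5, had 668, 597 and 677 FPKM in control and 643, 490 and 518 in prx-5 (-0.24 ± 0.18 SE, adjusted p = 0.487).

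**Figure D3:**
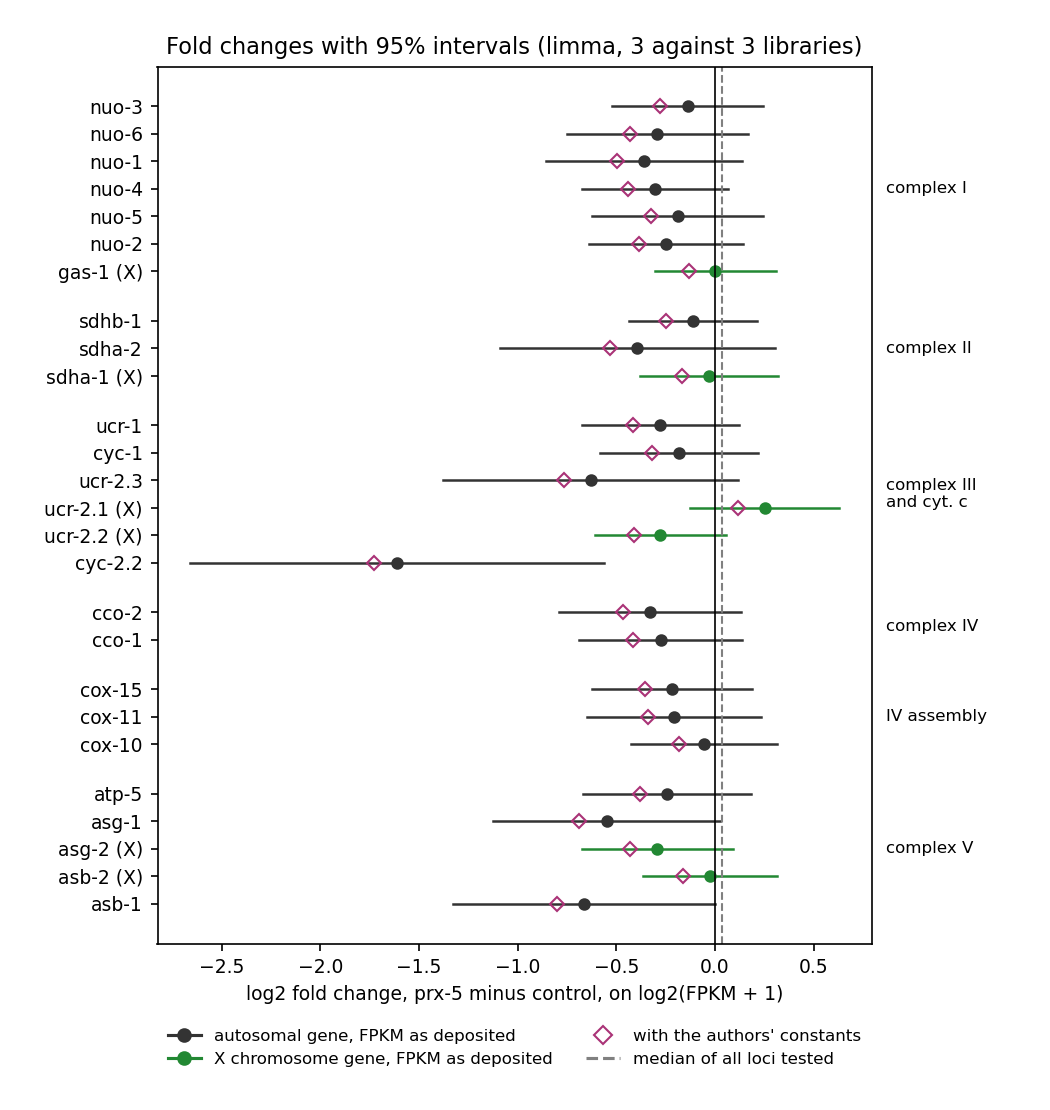
Log2 fold change (prx-5 minus control, on log2(FPKM + 1)) of each chain gene with its 95% confidence interval, by complex. The intervals of 25 genes include 0, and that of cyc-2.2 runs from -2.66 to -0.56 without passing the adjusted test.

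Without prx-5 replicate 1, the call changed for 3 of the 26 genes, all lower in prx-5. These were asg-1 (log2 fold change -0.80, adjusted p = 0.0194), asb-1 (-0.95, adjusted p = 0.0327) and ucr-2.3 (-0.96, adjusted p = 0.0393). In that fit 13.7% of all loci were called and 2.88% were called lower. The median difference without this library was -0.36 for complex I, -0.16 for II, -0.36 for III with cytochrome c, -0.34 for IV with its assembly genes and -0.36 for V, and 22 of 26 estimates were below 0. Without control replicate 2, 0 of the 26 were called and 22 of 26 estimates were below 0, with medians of -0.34, -0.15, -0.31, -0.30 and -0.30 in the same order. Leaving out any other library also left 0 called.

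Estimates that did not pass the test also depended on these libraries. Without prx-5 replicate 1 the log2 fold change was -0.70 for sdha-2, -0.55 for nuo-1, -0.44 for nuo-6, -0.41 for cco-1 and -0.34 for both cox-11 and cox-15. It was -0.32 for nuo-5, -0.27 for cyc-1 and -0.22 for nuo-3. Each of these is over 1.5 times the value from all 6 libraries. Without control replicate 2 it was -0.58 for sdha-2, -0.33 for cox-11, -0.29 for nuo-5, -0.28 for cyc-1, -0.22 for nuo-3 and -0.11 for cox-10.

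The autosomal and the X-linked chain genes had different profiles over the libraries. All 20 autosomal genes had estimates below 0, with a median of -0.28, while 4 of the 6 X-linked genes did, with a median of -0.03. Over all tested loci the medians were 0.01 on the autosomes and 0.23 on the X chromosome. With quantile normalization they were -0.11 and -0.02 over all loci, and -0.24 and -0.02 for the chain genes. The gap of the chain genes was not tested against that of other loci. Control replicate 2 was the lowest control in 19 of the 20 autosomal genes, the exception being cyc-2.2, and in 0 of the 6 X-linked genes, of which it was the highest control in 5. The median deviations of the autosomal genes were 0.08, -0.17 and 0.07 in control and 0.00, -0.39 and -0.42 in prx-5, and those of the X-linked genes were -0.02, 0.11 and -0.08 in control and -0.13, -0.02 and 0.03 in prx-5. Over all tested autosomal loci they were 0.02, -0.05 and 0.04 in control and 0.12, -0.004 and -0.05 in prx-5. Over all tested X-linked loci they were -0.04, 0.08 and -0.03 in control and 0.15, 0.21 and 0.35 in prx-5. Control replicate 2 thus lay low on autosomes and high on the X chromosome over all loci too. How often it was the lowest control over all loci was not counted.

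Most duplicated chain genes pair an autosomal with an X-linked copy, and their ratio within a library does not depend on a scaling constant apart from the pseudocount. Ratios were compared between the groups for 6 pairs by an exact permutation test, two-sided, whose smallest possible p with 3 against 3 libraries is 0.1. The FPKM ratio of asb-1 to asb-2 was 1.06, 0.672 and 1.09 in control and 0.917, 0.52 and 0.426 in prx-5, so that the groups overlapped (difference of log2 ratios -0.64, exact p = 0.2, adjusted p = 0.4 over the 6 pairs). The ratio of sdha-2 to sdha-1 was 2.84, 1.52 and 2.26 in control and 2.77, 1.37 and 1.19 in prx-5 (-0.36, exact p = 0.4). For asg-1 to asg-2 it was 1.77, 1.37 and 1.85 in control and 1.80, 1.36 and 1.08 in prx-5 (-0.26, exact p = 0.4). In each of these the lowest control was replicate 2 and the highest prx-5 value was replicate 1.

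Among the genes of the second core protein, ucr-2.3 to ucr-2.1 had a ratio of 2.36, 1.43 and 2.61 in control and 2.07, 0.804 and 0.826 in prx-5, an overlap through replicate 1 (-0.88, exact p = 0.2). The X-linked pair ucr-2.1 to ucr-2.2 was the one whose groups did not overlap, at 1.04, 1.304 and 1.28 in control and 1.42, 2.08 and 1.80 in prx-5 (0.53, exact p = 0.1, the smallest this test can give). The ratio of ucr-2.3 to ucr-2.2 differed by -0.35 (exact p = 0.4). All 6 pairs had an adjusted p of 0.4, and with 3 against 3 libraries this test could not have given a p under 0.05.

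**Figure D4:**
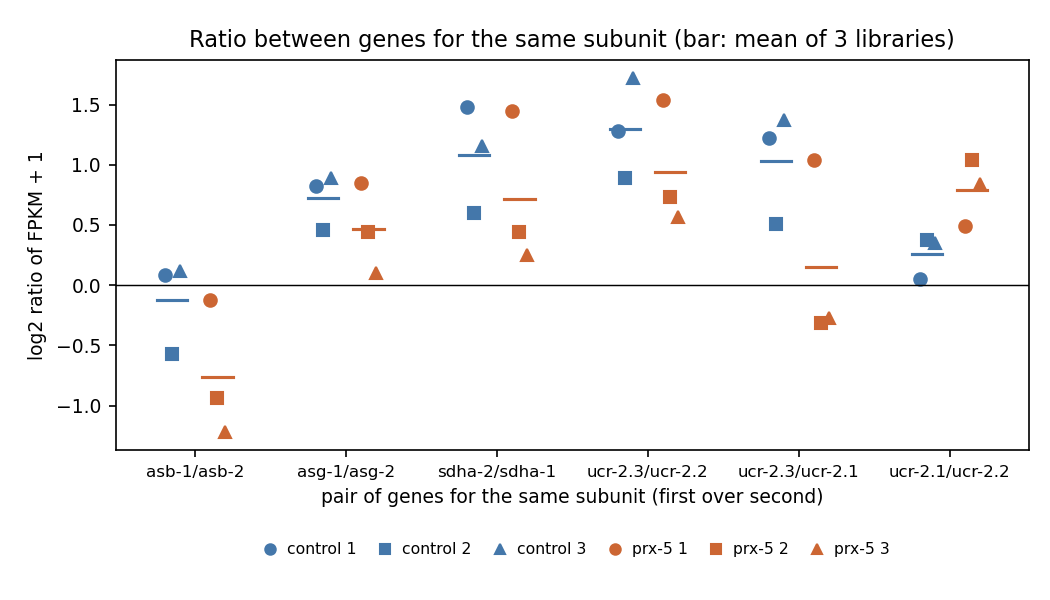
Log2 ratio of FPKM + 1 within each library for the 6 pairs of duplicated chain genes, with control and prx-5-labelled libraries as separate points. The groups overlap in all pairs except ucr-2.1 to ucr-2.2, where the 3 prx-5 ratios lie above the 3 control ratios.

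Further chain genes are listed under older or sequence names and were described beside the 26. Of 9 such genes, 0 passed the limma test and 9 had estimates below 0, with a median of -0.25. The locus counted for cox-6B (Y71H2AM.5) covers 0.84% of its gene in WBcel235 and also holds nduc-2, so its value may not be that of cox-6B alone. The 9 genes include atp-1 (listed as H28O16.1), the alpha subunit of the ATP synthase, with 727, 742 and 843 FPKM in control and 785, 628 and 608 in prx-5 (-0.20 ± 0.19 SE, adjusted p = 0.578). The oxidase subunit cox-4 (W09C5.8) had 594, 547 and 589 FPKM in control and 576, 437 and 482 in prx-5 (-0.22 ± 0.17 SE, adjusted p = 0.515). In cox-6A (tag-174) the groups did not overlap, with 405, 386 and 413 FPKM in control and 384, 303 and 331 in prx-5 (-0.25 ± 0.16 SE, adjusted p = 0.425). The assembly gene cox-14 (T20G5.14), which overlaps another coding gene, is the 1 of the 9 that the authors' deposited table calls (lower, q = 0.0425), and its limma estimate was -0.42 ± 0.20 SE (adjusted p = 0.285).

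A list of other chain subunits, most of them complex I and ATP synthase genes with nduf- or sequence names, was compared in the same way. Of 19 tested, 0 were called by limma and 19 had estimates below 0, with a median of -0.30. The authors' deposited table calls 4 of them lower, against 4.85% of all loci tested. The library medians of the 19 were 0.13, -0.13 and 0.04 in control and -0.01, -0.44 and -0.44 in prx-5. The lowest estimate was that of nduf-2.2, a core subunit of complex I, at 121 FPKM in control and 82.3 in prx-5 (-0.62 ± 0.32 SE, adjusted p = 0.317). Chain genes read from the mitochondrial genome stood at 3 tested loci and 0 called, with a median of -0.05, or 0.11 with quantile normalization. Their summed FPKM were 2439, 1622 and 1331 in control and 1927, 1516 and 1619 in prx-5, an overlap of the groups.

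Genes that make ubiquinone or assemble the complexes had a median of 0.06 over 11 tested, with 4 estimates below 0. Limma called 0 of them and the authors' deposited table calls 2 lower. The median turned to -0.08 with the authors' constants, -0.03 with median-ratio scaling and -0.04 with quantile normalization. The 4 estimates below 0 included bcs-1, which in yeast inserts the Rieske protein into complex III (790 and 568 FPKM, -0.51 ± 0.26 SE, adjusted p = 0.305), and sco-1, a copper chaperone of complex IV (46.6 and 33.96 FPKM, -0.47 ± 0.25 SE, adjusted p = 0.321). The highest estimate was that of sft-1, an assembly factor of complex IV, with 2.25 FPKM in control and 7.29 in prx-5 (1.2003 ± 0.41 SE, adjusted p = 0.134). Its prx-5 values were 13.1, 4.03 and 4.72 FPKM, and without replicate 1 the estimate was 0.73. The citrate cycle had 18 loci of 17 genes, since pyc-1 has 2 loci, with a median of -0.17. Limma called 0 of the 18 loci and the authors' deposited table calls 3 lower. Of the citrate cycle loci, 13 of 14 on autosomes and 1 of 4 on the X chromosome had estimates below 0. The ATP/ADP carrier ant-1.1, which exchanges ATP made by complex V for cytosolic ADP, had 2372 FPKM in control and 2461 in prx-5 (0.06 log2, adjusted p = 0.906). The low-level carriers ant-1.3 (4.54 and 2.38 FPKM) and ant-1.4 (2.69 and 1.39 FPKM) had estimates of -0.74 and -0.60 that did not pass either (adjusted p = 0.256 and 0.46).

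Other mitochondrial and ribosomal lists also had estimates mostly below 0. All 50 tested proteins of the mitochondrial ribosome had estimates below 0, with 0 called, a median of -0.34 and library medians of 0.16, -0.24 and 0.09 in control and 0.00, -0.52 and -0.53 in prx-5. Mitochondrial import genes had 0 of 9 called and 9 estimates below 0, with a median of -0.22. The authors' deposited table calls 7 of the mitochondrial ribosome and 1 of the import genes lower, against 4.85% of all loci tested. Cytosolic ribosomal proteins, 51 loci of 50 genes, had 0 called, 50 estimates below 0 and a median of -0.53, or -0.26 with quantile normalization. The authors' deposited table calls 39 of these loci lower, against 4.85% of all loci tested. The library medians of the cytosolic ribosomal proteins were 0.12, -0.18 and 0.07 in control and -0.06, -0.86 and -0.68 in prx-5.

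Tissue markers moved with the groups and with the libraries that stood apart, and their part in the chain values was not tested. All 18 germline markers had estimates below 0 and 0 were called by limma (2 lower in the authors' deposited table), with a median of -0.24. Their library medians of 0.11, -0.31 and 0.21 in control and 0.10, -0.28 and -0.51 in prx-5 put control replicate 2 low and prx-5 replicate 1 among the controls, as in the autosomal chain genes. By these medians prx-5 replicate 2 was also just inside the control range of the germline markers, at -0.28 against -0.31 in control replicate 2. In the autosomal chain genes prx-5 replicate 2 was at -0.39, below control replicate 2 at -0.17. The summed level of the germline markers was 3651, 2853 and 4222 FPKM in control and 3683, 2810 and 2365 in prx-5. By the sums prx-5 replicate 2 lay just below the control range. Of 12 body wall muscle markers, limma called 1 lower (mup-2, a troponin), against 1.2% of all loci. The authors' deposited table calls 10 of the 12 lower, against 4.85% of all loci. All 12 had estimates below 0, with a median of -0.72 and sums of 8725 to 9783 FPKM in control and 4572 to 6702 in prx-5. One muscle gene, unc-89, was listed at 0 in prx-5 replicate 3. Of 11 intestine markers, limma called 10 higher and 0 lower, against 7.49% of all loci higher. The authors' deposited table calls 11 of them higher, against 9.52% of all loci. The median of these markers was 1.58, with sums of 973.2 to 1460 FPKM in control and 3346 to 6226 in prx-5. No germline, sperm or intestine marker was listed at 0.

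**Figure D5:**
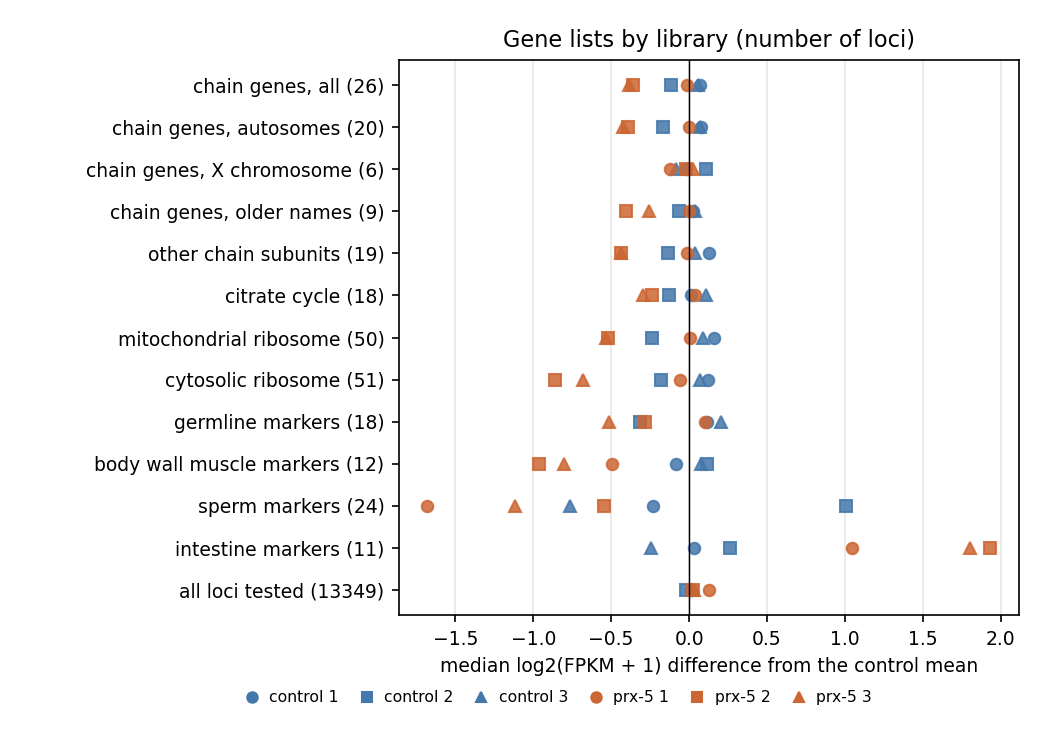
Median log2(FPKM + 1) difference from the control mean in each library, for the chain genes and the other lists. Each point is the median of a list in a library. In prx-5 replicates 1, 2 and 3 the 26 chain genes lie at -0.01, -0.36 and -0.38. The mitochondrial ribosome lies at 0.00, -0.52 and -0.53 and the germline markers at 0.10, -0.28 and -0.51. Muscle markers lie lower and intestine markers higher.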

How the data were processed

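The members and gene lists were chosen with earlier results of these data known. The authors deposited FPKM for each library, and their comparison table holds FPKM per group, log2 fold changes, a test statistic given as a score, and p-values with q-values, per the file headers. CASAVA, Bowtie, Cufflinks and Cuffdiff are named per the submitters' processing notes, and versions, genome build, annotation and strand are not given in the sources used here. Genes were matched to the WBcel235 annotation by gene identifier. Cufflinks loci can hold several genes, some with an FPKM row of their own and some joined into a single row, as cyc-2.1 and rpl-20 were. In WBcel235, 14 of the 26 chain loci held another coding gene. Starts were moved to count from 1.

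The 7 tables list 15796 loci. Those with labels that differed between tables (913) or whose authors' group value missed the mean of its libraries after 1 constant per library by over 2% (97) were left out, leaving 14786. These constants were fitted here to the authors' group values by least squares and were not given by the authors. Values marked FAIL or HIDATA (33) were set to missing. FPKM were used as deposited, as log2(FPKM + 1). Loci that averaged 1 FPKM or more were compared by limma 3.58.1 (R 4.3.3), with a variance trend, empirical Bayes moderation and Benjamini-Hochberg adjustment over all 13349. SDs are over 3 libraries. Full values were given to members with the largest differences or levels per complex, paralogs and genes known from lifespan mutants. Cells and tissues were not separated, and depth is unknown. Alternatives were pseudocounts, filters, scalings, no variance trend, a replicate block and leaving out each library.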

Additional observations from a re-analysis of the deposited data

How the results depend on the processing

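The count of all loci called, 1160, was 657 with median-ratio scaling (480 higher, 177 lower), 772 with quantile normalization (535 higher, 237 lower) and 713 with the authors' constants, and 78 to 1834 when each library was left out in turn, lowest without control replicate 3 and highest without prx-5 replicate 1. Chain genes called were 0 under each of these scalings and 0 to 3 when a library was left out. With the replicate number as a block, 1 was called, cyc-2.2 (adjusted p = 0.00841). The replicate numbers share no stated origin. Deviations from the group means correlated at 0.29, 0.232 and -0.117 between same-numbered libraries, so the numbers were not taken as pairs. The complex II median was -0.21 with median-ratio scaling, -0.25 with the authors' constants, -0.06 with quantile normalization and -0.06 without control replicate 3, and that of complex IV with its assembly genes was -0.14 without control replicate 3. Estimates near 0 changed sign, and the cause was not tested. That of gas-1 was -0.090 with median-ratio scaling and -0.13 with the authors' constants, and -0.034 to 0.045 when a library was left out. That of sdha-1 was -0.12 to 0.034 when a library was left out, above 0 without control replicates 2 or 3 or prx-5 replicate 1. That of asb-2 was 0.027 with quantile normalization and -0.074 to 0.033 when a library was left out, above 0 without control replicate 2 or prx-5 replicate 1. Of 561 values recomputed, 534 kept their direction and side of the threshold, or for counts and medians stayed close to the reported value, 12 counts or medians moved, 11 estimates changed sign and 4 passed the threshold. Filters, the block and the variance trend do not apply to the paralog ratios.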
